A study of Mus musculus with 12 samples.

Results

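The transcripts of 47 genes for glutamate and GABA receptor subunits were followed in mouse brain tissue beside an intracerebral hemorrhage (ICH). The genes were chosen by symbol alone from the 21956 genes of the count table, as every gene named as an AMPA, kainate, delta, NMDA or metabotropic glutamate receptor subunit or as a GABA-A or GABA-B receptor subunit. They comprised 4 AMPA, 5 kainate, 2 delta, 7 NMDA, 8 metabotropic glutamate, 19 GABA-A and 2 GABA-B genes.

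Glutamate is the main excitatory and GABA the main inhibitory transmitter of the brain. AMPA, kainate and NMDA receptors are glutamate-gated cation channels assembled from several subunits, and NMDA receptors also pass calcium, whose excess entry is the textbook route of excitotoxic neuron death. GABA-A receptors are chloride channels of mixed subunits, whereas metabotropic glutamate and GABA-B receptors act through G proteins. In the striatum these genes are transcribed mainly by neurons, with some of them, such as Grm3 and Gabrg1, also used by astrocytes.

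The study asked what deletion of Fabp4, a fatty acid-binding protein gene, in microglia does to the injured brain. ICH was induced by injecting collagenase into the right striatum, and sham mice had the same operation without the enzyme. Tissue next to the hematoma was taken 48 h after ICH, and the time at which sham tissue was taken is not stated in the sources used here. RNA-seq covered 12 libraries, 3 mice in each of 4 groups. The groups are called here Sham-Fabp4 fl/fl, Sham-Fabp4 CKO, ICH-Fabp4 fl/fl and ICH-Fabp4 CKO (the labels write fl_fl for fl/fl). Mice of every group carried floxed Fabp4 alleles. The CKO mice also carried a tamoxifen-inducible Cre at Tmem119, a microglia gene, and had received tamoxifen before surgery. The sources do not state whether the fl/fl mice received tamoxifen, nor the age or sex of the floxed mice.

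Libraries held between 15650822 and 22406226 estimated counts, and each is given below by its group and mouse number. Fabp4 had 46, 63 and 24 reads in ICH-Fabp4 fl/fl mice and 5, 3 and 10 in ICH-Fabp4 CKO mice, with at most 2 reads in any sham library. Several libraries stood apart within their group. Sham-Fabp4 fl/fl mice 1 and 2 had summed levels of 9 cortical excitatory neuron markers of 551 and 681 CPM (counts scaled to library size, per 1000000) against 130 CPM in mouse 3, and of 7 thalamic markers of 1190 and 851 CPM against 308 CPM. Their 10 striatal projection neuron markers summed to 2170 and 2550 CPM against 7030 CPM in mouse 3. Choroid plexus markers summed to between 854 and 3260 CPM in Sham-Fabp4 fl/fl libraries and to between 46.6 and 55 CPM in Sham-Fabp4 CKO libraries. Among the ICH-Fabp4 CKO libraries, mice 1 and 3 had macrophage and monocyte marker sums of 6230 and 11000 CPM against 1380 CPM in mouse 2. Cortical excitatory neuron markers summed to 518 CPM in mouse 2, against 129 and 139 CPM in mice 1 and 3. In Sham-Fabp4 CKO libraries that sum was between 145 and 201 CPM. ICH-Fabp4 fl/fl mouse 1 had 16.3% of its reads on mitochondrial genes, against 7.9% to 11.9% in the other libraries. ICH-Fabp4 CKO mouse 1 had 1 read on Y-linked genes, whereas the other 11 libraries had between 1302 and 2251. Counts of receptor genes lower after ICH are given with and without libraries that stood apart.

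Levels per library are CPM normalised by the trimmed mean of M-values (TMM), and levels between genes are compared only after division by the summed exon length in kilobases (kb). In Sham-Fabp4 fl/fl tissue Gabbr1, the ligand-binding GABA-B subunit, had the highest level of the 47 genes at 116 CPM per kb ± 10.8 (SD, n = 3). Gria1, an AMPA subunit, followed with 82.9 CPM per kb ± 11.6. The next genes in that order were Gabbr2 with 44.8 CPM per kb ± 15.5 and the obligatory NMDA subunit Grin1 with 39.4 ± 7.48, and these neighbours differed by less than their spread. Among the 42 genes that passed the filter on low counts given next, the low end held Grm8 with 1.11 CPM per kb ± 0.103, Gabrr2 with 0.666 ± 0.258 and Grin3b with 0.132 ± 0.0536. Exon lengths came from an annotation that may differ from the one used for counting.

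A filter on low counts left 42 of the 47 genes for the comparisons of ICH with sham. The other 5, namely Gabra6, Gabrp, Gabrr1, Gabrr3 and Grm6, were at or near 0 in every library. Gabrr1, a rho subunit known from the retina, had 4, 7 and 0 reads in Sham-Fabp4 fl/fl mice, 6, 5 and 2 in Sham-Fabp4 CKO mice, 0, 3 and 3 in ICH-Fabp4 fl/fl mice and 0, 4 and 4 in ICH-Fabp4 CKO mice. Gabrp, the pi subunit, had 7 reads in Sham-Fabp4 fl/fl mouse 2, 1 read in Sham-Fabp4 CKO mouse 2, 2 reads each in ICH-Fabp4 fl/fl mouse 1 and ICH-Fabp4 CKO mouse 2, and none elsewhere. Gabra6, a subunit of cerebellar granule cells and also a marker of them in the lists used here, had 2 reads in Sham-Fabp4 fl/fl mouse 1 and in Sham-Fabp4 CKO mouse 2, 1 read each in Sham-Fabp4 fl/fl mouse 3 and ICH-Fabp4 fl/fl mouse 1, and none elsewhere. Gabrr3 had 4 reads in ICH-Fabp4 fl/fl mouse 3, 1 read in Sham-Fabp4 CKO mouse 2 and none elsewhere. Grm6, the metabotropic receptor of retinal ON bipolar cells, had 0 reads in all 12 libraries, which at 3 reads allows a level of up to between 0.136 and 0.197 CPM per library, counting error only.

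ICH was compared with sham within each genotype to ask how the receptor genes stood 48 h after the hemorrhage. In fl/fl mice 32 of the 42 genes were lower after ICH and 0 were higher at an adjusted p under 0.05 (edgeR quasi-likelihood test). Over all 14719 genes tested, 19.3% were lower and 26.2% were higher. At an unadjusted p under 0.05, 35 of the 42 were lower and 0 were higher, against 24.9% and 30.3% of all genes, and DESeq2 called 35 lower and 0 higher, against 24.8% and 26.6%. The log2 fold change was negative for 41 of the 42 genes, with a median of -1.36 over the receptor genes and 0.019 over all genes tested. All 3 ICH libraries lay below all 3 sham libraries for 33 of the 42 genes, against 29.0% of all genes. Among the 10 genes that did not pass were Grik5, Grin2c, Grin3b, Grm3, Grm5, Gabrd, Gabrg3 and Gabrr2.

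In CKO mice 15 of the 42 genes were lower after ICH and 0 were higher by the same test, where 11.1% of 14737 genes were lower and 24.5% were higher. At an unadjusted p under 0.05, 31 were lower and 0 were higher, against 22.2% and 30.3% of all genes, and DESeq2 called 34 lower and 0 higher, against 24.1% and 28.2%. All 42 log2 fold changes were negative, with a median of -1.17 against 0.014 over all genes tested. All ICH libraries lay below all sham libraries for 35 of the 42 genes, against 30.3% of all genes. Of the genes called in the 2 genotypes, 14 were the same, which is 43.8% of the 32 called in fl/fl mice and 93.3% of the 15 called in CKO mice. A further 1 gene was called in CKO mice and not in fl/fl mice, and 18 were called in fl/fl mice and not in CKO mice. These unequal counts do not show a difference between genotypes, which is tested separately.

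The counts moved with the libraries included. Among fl/fl mice, 17 genes were called lower without Sham-Fabp4 fl/fl mouse 2, 21 without Sham-Fabp4 fl/fl mouse 3, 14 without ICH-Fabp4 fl/fl mouse 2 and 28 without ICH-Fabp4 fl/fl mouse 1. Of all genes 11.4%, 15.1%, 9.83% and 15.3% were lower in these fits. Without Sham-Fabp4 fl/fl mouse 1, 27 were called, against 14.3% of all genes, and without ICH-Fabp4 fl/fl mouse 3, 39 were called, against 25.8%. Without Sham-Fabp4 fl/fl mice 1 and 2 together, 5 genes were called, namely Gabra2, Gabre, Gabrq, Grik1 and Grm2, where 2.54% of all genes were lower, and none of the 32 changed sign. That fit holds 1 sham library, so its spread comes from the ICH mice alone. Among CKO mice, 2 genes were called without any 1 of the 3 sham mice or without ICH-Fabp4 CKO mouse 1, 9 without ICH-Fabp4 CKO mouse 3 and 40 without ICH-Fabp4 CKO mouse 2. The shares of all genes lower in these fits were between 0.335% and 0.5% without a sham mouse, 0.993% without ICH mouse 1, 4.68% without ICH mouse 3 and 32.7% without ICH mouse 2. With ICH-Fabp4 CKO mice 1 and 3 left out together, 26 receptor genes were called, against 11.1% of all genes. Mouse 2 is then the 1 ICH library, assumed to vary like the sham mice, from which the spread of that fit comes. The plot of the subunit genes by library shows the size of this spread among ICH mice.

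**Figure D1:**
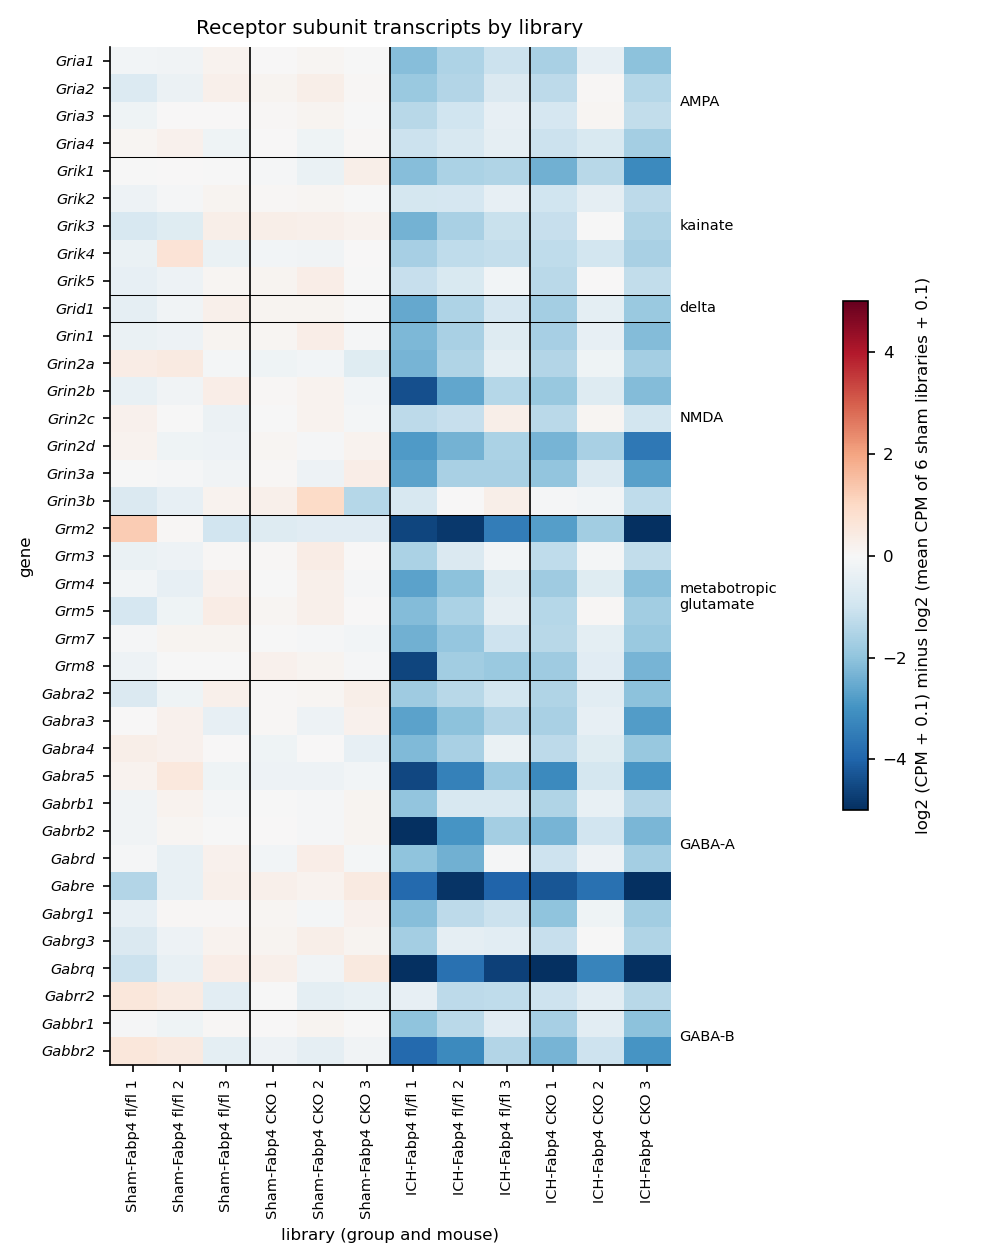
Levels of 37 of the 42 receptor genes that passed the filter (rows, by receptor class) in 12 libraries (columns, by group and mouse). Colour is the log2 of CPM plus 0.1 relative to the mean of the 6 sham libraries, with differences beyond 5 at the end colour, and the ICH columns are lower for most genes, ICH-Fabp4 CKO mouse 2 and ICH-Fabp4 fl/fl mouse 3 less so than the other ICH mice, and Gabrq, Gabre and Grm2 are the darkest rows.

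The sum of all 47 genes was 5100, 5360 and 5900 CPM in Sham-Fabp4 fl/fl mice 1 to 3 and 5710, 5970 and 5580 CPM in Sham-Fabp4 CKO mice. It was 1190, 1880 and 3280 CPM in ICH-Fabp4 fl/fl mice and 1830, 4150 and 1440 CPM in ICH-Fabp4 CKO mice. The ICH mice thus lay below every sham mouse, and their spread was wider than that of the sham mice. The sum of 12 pan-neuronal markers, such as Rbfox3 and Snap25, moved alongside, from between 6130 and 7750 CPM in sham libraries to 1940, 3020 and 4240 CPM in ICH-Fabp4 fl/fl mice and 2590, 5240 and 1740 CPM in ICH-Fabp4 CKO mice. Of these 12 markers 10 were lower after ICH in fl/fl mice and 2 in CKO mice, and none was at 0. Their median log2 fold change was -1.22 in each genotype. At an unadjusted p under 0.05 (edgeR), 11 were lower in fl/fl mice and 10 in CKO mice, against 24.9% and 22.2% of all genes. In these bulk samples, where CPM are shares of a library, fewer neurons and less RNA per neuron cannot be told apart. Nor can either be told from the rise of other cells' transcripts given next.

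Other cells' transcripts moved with the same comparison. All 7 macrophage and monocyte markers were higher after ICH in both genotypes, with sums of between 46.2 and 104 CPM in sham libraries, between 1160 and 2070 CPM in ICH-Fabp4 fl/fl libraries and between 1380 and 11000 CPM in ICH-Fabp4 CKO libraries, and Ccr2 and Ly6c2 at 0 in 1 sham library each. Of 7 microglia markers 6 were higher in each genotype, with sums from between 427 and 510 CPM in sham to between 1570 and 4710 CPM after ICH. All 7 endothelial markers were higher in fl/fl mice and 3 in CKO mice, and of 8 astrocyte markers 3 and 4 were higher. Of 7 oligodendrocyte markers 2 were higher in fl/fl mice, whereas 0 were higher and 1 was lower in CKO mice. Of 6 oligodendrocyte precursor markers 3 and 1 were higher. All neutrophil markers tested were higher, 4 in fl/fl mice and 5 in CKO mice, with sums of at most 1.63 CPM in sham libraries. All 6 choroid plexus markers were lower after ICH in fl/fl mice, with ICH sums of between 20.7 and 27.9 CPM and Folr1 and Kcnj13 at 0 in 1 ICH-Fabp4 fl/fl library each. Of the 5 tested in CKO mice 3 were lower, with ICH sums of between 15.3 and 24.1 CPM. Of 9 cortical excitatory neuron markers 8 were lower in fl/fl mice, with ICH sums of between 38.1 and 104 CPM, and 0 in CKO mice, with ICH sums of between 129 and 518 CPM. Of 7 thalamic markers 4 were lower in fl/fl mice and 2 in CKO mice. Of 10 striatal projection neuron markers 0 were lower in fl/fl mice, with a median log2 fold change of -0.47, and 3 in CKO mice, with a median of -1.13, and 0 were higher in either. Their sums were between 4730 and 8060 CPM in Sham-Fabp4 CKO mice, between 1480 and 5350 CPM in ICH-Fabp4 fl/fl mice and between 1820 and 4250 CPM in ICH-Fabp4 CKO mice. Of 8 GABAergic interneuron markers 1 was lower and 1 higher in fl/fl mice and 2 were lower in CKO mice, with sums of between 1420 and 2040 CPM in sham and between 388 and 1450 CPM after ICH. The part of these shifts in the receptor genes' levels was not tested beyond the scaling to neuronal genes given later.

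**Figure D2:**
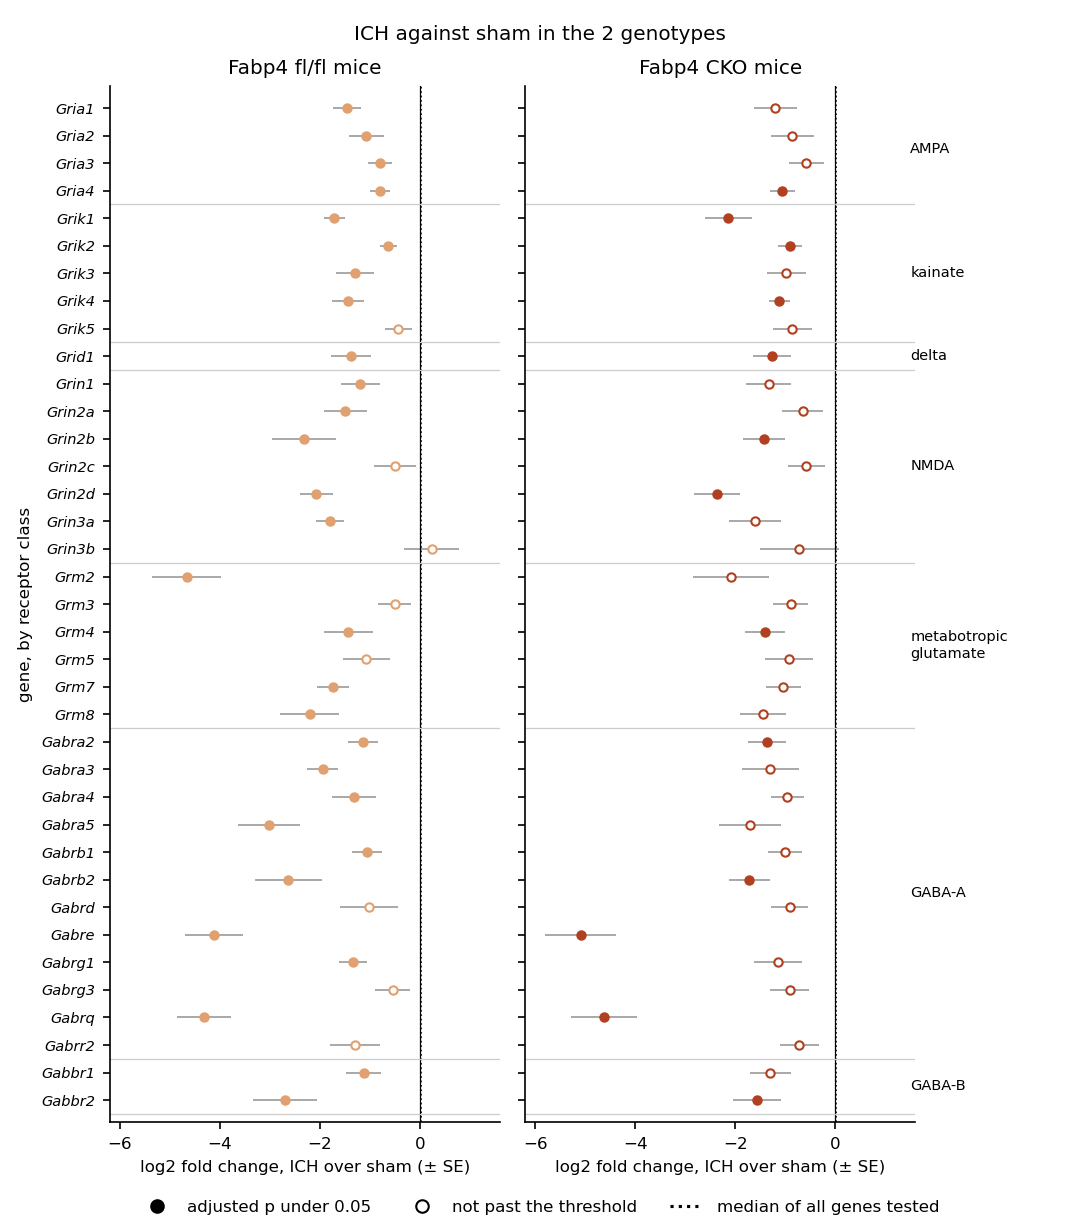
Log2 fold change of ICH over sham for 37 of the 42 receptor genes (rows, by class) in fl/fl mice (left) and CKO mice (right), with bars of ± 1 SE. Filled points passed an adjusted p of 0.05, which 29 of the genes shown did in fl/fl mice and 13 in CKO mice, all of them lower, and the dotted line is the median of all genes tested.

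Promoter sequence was read for the 3 genes with the largest falls in fl/fl mice, Grm2, Gabrq and Gabre, and for Grik5, which did not pass, so that strongly and weakly changed genes can be set side by side. The sequences are the 250 bases before the annotated start in RefSeq, build GRCm38.p6, written 5′ to 3′ on the gene's strand. Capitals mark the letters TTCAGCACC, the left part of the neuron-restrictive silencer element.
Grm2 promoter, chr9:106656110-106656359, - strand: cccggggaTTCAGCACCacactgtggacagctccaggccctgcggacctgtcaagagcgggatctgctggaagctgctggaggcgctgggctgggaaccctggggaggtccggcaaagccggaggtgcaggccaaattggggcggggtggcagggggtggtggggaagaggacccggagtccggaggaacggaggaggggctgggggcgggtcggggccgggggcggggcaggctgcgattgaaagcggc
Gabrq promoter, chrX:72824928-72825177, + strand: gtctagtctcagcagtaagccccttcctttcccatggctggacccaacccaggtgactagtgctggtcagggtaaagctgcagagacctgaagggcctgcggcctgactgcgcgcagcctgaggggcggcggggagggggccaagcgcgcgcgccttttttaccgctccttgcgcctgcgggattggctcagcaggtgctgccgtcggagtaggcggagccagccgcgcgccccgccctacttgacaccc
Gabre promoter, chrX:72274722-72274971, - strand: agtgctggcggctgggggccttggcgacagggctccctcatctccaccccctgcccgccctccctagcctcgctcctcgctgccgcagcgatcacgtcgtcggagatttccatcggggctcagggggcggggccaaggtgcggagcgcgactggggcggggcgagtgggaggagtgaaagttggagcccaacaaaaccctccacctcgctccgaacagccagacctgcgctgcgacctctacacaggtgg
Grik5 promoter, chr7:25072370-25072619, - strand: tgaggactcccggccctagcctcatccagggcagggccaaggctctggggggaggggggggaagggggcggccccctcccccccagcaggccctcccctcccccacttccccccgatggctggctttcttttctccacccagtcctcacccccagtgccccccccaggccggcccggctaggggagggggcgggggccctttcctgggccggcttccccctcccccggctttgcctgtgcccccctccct

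A promoter was found for 32 of the 47 genes, 39 promoters in all, and 4 motifs were searched on both strands in these 250 bases. TTCAGCACC was found in 1 of the 39 promoters, that of Grm2, and in 0.301% of the 32851 promoters of the table. The cAMP response element TGACGTCA was found in 0 of the 39 and in 1.546% of all promoters, and the early growth response site GCGGGGGCG in 0 of the 39 and in 2.572% of all. The letters TATAAA were found in 4 promoters, of Gabra3, Gabrb2 and Grin3b, which is 10.256% of the 39, and in 12.368% of all promoters. The Gabra3 promoters overlap and share the same match, TTTATA, which is TATAAA on the other strand. GC content was 71.2% for Grm2, 67.2% for Gabrq, 68.8% for Gabre and 75.2% for Grik5. A match describes letters in this window and is not a bound site.

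All 4 AMPA subunit genes, which carry fast excitation, were lower after ICH in fl/fl mice. Gria1 had the largest change, with 466, 456 and 582 CPM in Sham-Fabp4 fl/fl mice and 117, 178 and 245 CPM in ICH-Fabp4 fl/fl mice. The groups did not overlap, and Gria1 fell by 1.46 on the log2 scale (SE 0.28, adjusted p = 0.00606). Gria1 had 515, 547 and 510 CPM in Sham-Fabp4 CKO mice and 165, 387 and 124 CPM in ICH-Fabp4 CKO mice, a log2 fold change of -1.20 (SE 0.43, adjusted p = 0.0685). Mouse 2 of that ICH group was the highest, although still below the sham mice.

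Gria4 had the smallest AMPA change in fl/fl mice, from 82.1, 90.7 and 66.4 CPM to 36.2, 43.8 and 55.8 CPM, and it fell by 0.80 (SE 0.20, adjusted p = 0.016). It was also the 1 AMPA gene called in CKO mice, where 77.3, 66.5 and 79.7 CPM in sham stood against 36.4, 46.0 and 23.4 CPM after ICH, a fall by 1.06 (SE 0.26, adjusted p = 0.0264). The ranges were apart in both genotypes. Gria2, whose edited subunit makes AMPA receptors nearly impermeable to calcium, and Gria3 also fell in fl/fl mice, with log2 fold changes of -1.07 and -0.80. In CKO mice the log2 fold changes of Gria2 and Gria3 were -0.86 (adjusted p = 0.141) and -0.58 (adjusted p = 0.21).

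Of the 5 kainate subunit genes, which tune transmission on both sides of the synapse, 4 were lower in fl/fl mice and 3 in CKO mice. Grik1 had 15.7, 15.9 and 15.8 CPM in Sham-Fabp4 fl/fl mice and 3.55, 5.20 and 5.53 CPM in ICH-Fabp4 fl/fl mice, the tightest sham values among the kainate genes. It fell by 1.71 (SE 0.21, adjusted p = 0.00101), with no overlap. In CKO mice it went from 15.4, 12.6 and 19.5 CPM to 2.93, 5.97 and 1.67 CPM and fell by 2.14 (SE 0.47, adjusted p = 0.0204), and the groups were again apart.

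Grik5, which encodes a high-affinity kainate subunit, was the kainate gene that moved least. It had 114, 128 and 167 CPM in Sham-Fabp4 fl/fl mice and 68.8, 91.1 and 140 CPM in ICH-Fabp4 fl/fl mice, and 171, 193 and 150 CPM in Sham-Fabp4 CKO mice against 60.4, 154 and 65.7 CPM in ICH-Fabp4 CKO mice. The groups overlapped in both genotypes, and the log2 fold changes were -0.43 (SE 0.28, adjusted p = 0.232) and -0.86 (SE 0.39, adjusted p = 0.115). Grik2 and Grik4 fell in both genotypes, with log2 fold changes in fl/fl and CKO mice of -0.63 and -0.91 for Grik2 and of -1.44 and -1.12 for Grik4. Grik3 fell by 1.3 in fl/fl mice and had a log2 fold change of -0.98 in CKO mice (adjusted p = 0.0849).

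Grid1 encodes a delta subunit, a kind of receptor protein that organises synapses through partner proteins. It had 60.9, 74.0 and 98.9 CPM in Sham-Fabp4 fl/fl mice and 13.9, 28.4 and 46.7 CPM in ICH-Fabp4 fl/fl mice, with no overlap, and fell by 1.38 (SE 0.41, adjusted p = 0.0287). It had 91.9, 90.1 and 82.1 CPM in Sham-Fabp4 CKO mice against 25.6, 59.3 and 22.9 CPM in ICH-Fabp4 CKO mice and fell by 1.27 (SE 0.38, adjusted p = 0.0439). No ICH mouse reached the lowest sham mouse in either genotype.

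Of the 7 NMDA subunit genes 5 were lower in fl/fl mice and 2 in CKO mice. Grin2b, whose subunit gives slow receptors with a long calcium tail, had 261, 302 and 421 CPM in Sham-Fabp4 fl/fl mice and 16.03, 55.4 and 125 CPM in ICH-Fabp4 fl/fl mice. Every ICH mouse was below every sham mouse, with mouse 1 lowest, and Grin2b fell by 2.31 (SE 0.64, adjusted p = 0.0234). In CKO mice it had 356, 378 and 310 CPM in sham and 91.2, 219 and 74.5 CPM after ICH, a fall by 1.42 (SE 0.42, adjusted p = 0.0442).

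Grin2a, whose subunit gives faster receptors typical of mature synapses, had 114, 119 and 81.1 CPM in Sham-Fabp4 fl/fl mice and 17.5, 30.6 and 62.6 CPM in ICH-Fabp4 fl/fl mice, and fell by 1.49 (SE 0.43, adjusted p = 0.0263). It had 75.5, 80.7 and 57.3 CPM in Sham-Fabp4 CKO mice and 31.4, 75.4 and 27.0 CPM in ICH-Fabp4 CKO mice, where the ranges overlapped (log2 fold change -0.65, SE 0.41, adjusted p = 0.231). Grin2d, a subunit of interneurons and subcortical nuclei, fell by 2.07 in fl/fl mice (SE 0.33, adjusted p = 0.00284) and fell by 2.37 in CKO mice (SE 0.46, adjusted p = 0.015). Grin1 fell by 1.19 in fl/fl mice and had a log2 fold change of -1.33 in CKO mice (adjusted p = 0.0608). Grin3a, whose subunit lowers calcium entry, fell by 1.80 in fl/fl mice and had -1.60 in CKO mice (adjusted p = 0.053).

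Grin2c and Grin3b did not pass in either genotype. Grin2c had log2 fold changes of -0.50 (SE 0.42, adjusted p = 0.347) and -0.58 (SE 0.37, adjusted p = 0.238) in fl/fl and CKO mice. Grin3b was the 1 gene of the 42 with a positive value in fl/fl mice, 0.24 (SE 0.55, adjusted p = 0.744). Its levels were 0.287, 0.387 and 0.631 CPM in Sham-Fabp4 fl/fl mice, 0.662, 1.13 and 0.141 CPM in Sham-Fabp4 CKO mice, 0.263, 0.544 and 0.691 CPM in ICH-Fabp4 fl/fl mice and 0.521, 0.480 and 0.167 CPM in ICH-Fabp4 CKO mice. All 4 groups overlapped, no library held more than 25 reads, and exons of Tmem259 overlap Grin3b on the other strand, so these values are uncertain.

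Of the 7 metabotropic glutamate genes tested, 5 were lower in fl/fl mice and 2 in CKO mice. Grm2, a presynaptic receptor that restrains glutamate release, had the largest change of the 42 genes in fl/fl mice. It had 48.04, 20.8 and 10.2 CPM in Sham-Fabp4 fl/fl mice and 0.723, 0.605 and 1.701 CPM in ICH-Fabp4 fl/fl mice, and it fell by 4.66 (SE 0.69, adjusted p = 0.00217). The sham mice themselves spread widely, mouse 1 being the highest, and without sham mice 1 and 2 Grm2 fell by 3.32 (adjusted p = 0.032). In CKO mice it had 12.7, 13.4 and 13.4 CPM in sham and 2.87, 5.87 and 0.388 CPM after ICH, with no overlap and a log2 fold change of -2.09 (SE 0.76, adjusted p = 0.0711).

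Grm3, which neurons and astrocytes share, had the smallest change of the class. It had 50.01, 52.6 and 65.2 CPM in Sham-Fabp4 fl/fl mice and 21.0, 38.2 and 57.5 CPM in ICH-Fabp4 fl/fl mice (log2 fold change -0.51, SE 0.33, adjusted p = 0.236), and the ranges overlapped. In CKO mice it had 65.3, 80.3 and 63.6 CPM in sham and 26.3, 58.2 and 26.5 CPM after ICH, without overlap (log2 fold change -0.89, SE 0.34, adjusted p = 0.0797).

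Grm5, a Gq-coupled receptor, had log2 fold changes of -1.07 and -0.92 and did not pass in either genotype (adjusted p = 0.0964 and 0.157). The presynaptic receptors Grm4, Grm7 and Grm8 fell in fl/fl mice, with log2 fold changes of -1.43, -1.73 and -2.200. In CKO mice Grm4 fell by 1.40 (adjusted p = 0.0402), and Grm7 and Grm8 had -1.04 and -1.45 (adjusted p = 0.0585 and adjusted p = 0.0515).

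Of the 15 GABA-A genes tested 11 were lower in fl/fl mice and 4 in CKO mice. The largest falls were those of Gabrq and Gabre, which encode the theta and epsilon subunits. Both lie in a cluster on the X chromosome, with Gabra3 between them. Gabrq had 10.3, 16.7 and 27.0 CPM in Sham-Fabp4 fl/fl mice and 0.394, 1.51 and 0.744 CPM in ICH-Fabp4 fl/fl mice, and fell by 4.32 (SE 0.53, adjusted p = 0.00105). In CKO mice Gabrq had 25.96, 19.1 and 30.3 CPM in sham and 0.587, 2.08 and 0.278 CPM after ICH, and fell by 4.63 (SE 0.67, adjusted p = 0.0076). No ICH mouse of either genotype came near the lowest sham mouse.

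Gabre had 2.97, 6.30 and 9.88 CPM in Sham-Fabp4 fl/fl mice, 9.79, 9.34 and 11.3 CPM in Sham-Fabp4 CKO mice, 0.460, 0.181 and 0.425 CPM in ICH-Fabp4 fl/fl mice and 0.326, 0.533 and 0 CPM in ICH-Fabp4 CKO mice. The ICH values rest on 7, 3, 8, 5, 10 and 0 reads. Gabre fell by 4.12 in fl/fl mice (SE 0.58, adjusted p = 0.00174) and fell by 5.09 in CKO mice (SE 0.71, adjusted p = 0.00738). Gabra3, the middle gene of the cluster, fell by 1.95 in fl/fl mice (SE 0.32, adjusted p = 0.00307). It had a log2 fold change of -1.301 in CKO mice (adjusted p = 0.107). Gabrq and Gabre had log2 fold changes of -4.94 and -4.78 in fl/fl mice without Sham-Fabp4 fl/fl mice 1 and 2, and of -3.59 and -4.24 in CKO mice without ICH-Fabp4 CKO mice 1 and 3. Each of these fits rests on 1 library in the reduced group.

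Gabra5, an alpha subunit of extrasynaptic receptors, had 60.2, 76.4 and 45.5 CPM in Sham-Fabp4 fl/fl mice and 2.17, 5.02 and 14.99 CPM in ICH-Fabp4 fl/fl mice, and fell by 3.01 (SE 0.62, adjusted p = 0.00787). It had 44.0, 44.6 and 48.2 CPM in Sham-Fabp4 CKO mice and 5.80, 28.5 and 6.71 CPM in ICH-Fabp4 CKO mice (log2 fold change -1.71, SE 0.62, adjusted p = 0.0708). Gabra4, an alpha subunit common in the striatum, had 200.2, 191 and 168 CPM in Sham-Fabp4 fl/fl mice and 35.4, 54.1 and 131 CPM in ICH-Fabp4 fl/fl mice, and fell by 1.32 (SE 0.44, adjusted p = 0.0434). In CKO mice Gabra4 had 142, 166 and 126 CPM in sham and 67.2, 109 and 44.6 CPM after ICH (log2 fold change -0.96, SE 0.33, adjusted p = 0.0624). Both genes were below sham in every ICH mouse.

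Gabrg3, a gamma subunit, had the smallest GABA-A change in fl/fl mice. It had 25.0, 35.0 and 47.0 CPM in Sham-Fabp4 fl/fl mice and 12.8, 30.6 and 29.0 CPM in ICH-Fabp4 fl/fl mice (log2 fold change -0.54, SE 0.35, adjusted p = 0.235), with overlap. In CKO mice it had 46.2, 50.2 and 45.5 CPM in sham and 18.4, 41.4 and 14.5 CPM after ICH (log2 fold change -0.91, SE 0.39, adjusted p = 0.105). Gabrb2, a beta subunit, fell by 2.63 in fl/fl mice (SE 0.67, adjusted p = 0.017) and fell by 1.72 in CKO mice (SE 0.41, adjusted p = 0.025). Gabra2 fell in both genotypes, with -1.13 and -1.37. Gabrb1 and Gabrg1 fell in fl/fl mice, with -1.06 and -1.34, and had -1.01 and -1.15 in CKO mice, where they did not pass. Gabrd and Gabrr2 had log2 fold changes of between -1.295 and -0.73 and did not pass in either genotype.

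The 2 GABA-B genes encode partners of an obligatory heterodimer. Gabbr1 had 899, 812 and 978 CPM in Sham-Fabp4 fl/fl mice and 230, 363 and 631 CPM in ICH-Fabp4 fl/fl mice, and fell by 1.12 (SE 0.35, adjusted p = 0.0349). Gabbr2, the signalling partner, had 375, 342 and 181 CPM in Sham-Fabp4 fl/fl mice and 16.9, 28.1 and 91.8 CPM in ICH-Fabp4 fl/fl mice, and fell by 2.70 (SE 0.64, adjusted p = 0.0131). Sham mice 1 and 2, which also had more cortical and thalamic transcripts, were the high ones for Gabbr2, and without them its log2 fold change was -1.998 (adjusted p = 0.153).

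In CKO mice Gabbr1 had 945, 1035 and 931 CPM in sham and 294, 648 and 222 CPM after ICH (log2 fold change -1.302, SE 0.41, adjusted p = 0.0503). Gabbr2 had 215, 186 and 223 CPM in sham and 50.6, 123.4 and 32.9 CPM after ICH, and fell by 1.57 (SE 0.48, adjusted p = 0.0476). The ICH and sham ranges were apart for both genes.

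**Figure D3:**
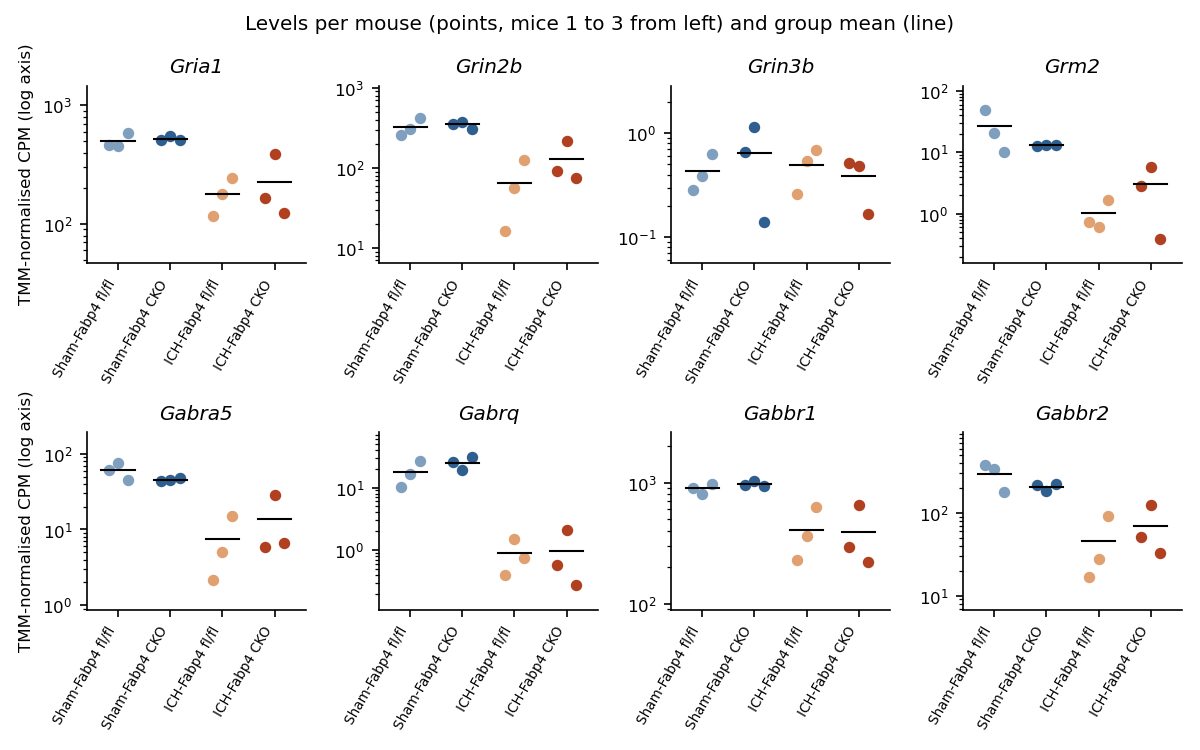
Levels of 8 receptor genes in each mouse (points, mice 1 to 3 from left) and the group mean (line), in TMM-normalised CPM on log axes whose ranges differ by gene. Gabrq lies between 10.3 and 30.3 CPM in sham mice and between 0.278 and 2.08 CPM in ICH mice, whereas the 4 groups overlap for Grin3b.

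Because pan-neuronal transcripts fell as well, the same test was run with libraries scaled to the 12 pan-neuronal genes. The median of all genes then stood at 1.35 on the log2 scale in fl/fl mice and at 1.52 in CKO mice, so the scaled values are read against neuronal transcripts and not against the tissue. The median of the receptor genes was -0.22 in fl/fl mice and 0.02 in CKO mice. In fl/fl mice 8 of the 42 genes were lower and 0 were higher, where 1.80% of all genes were lower and 64.1% were higher. Among them were Grm2, Gabrq, Gabre, Gabra5, Gabrb2, Gabbr2 and Grin2b. In CKO mice 3 were lower and 0 were higher, namely Gabre, Gabrq and Grin2d, where 0.584% of all genes were lower and 66.7% were higher.

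On this scale Gabrq had log2 fold changes of -3.19 (SE 0.62, adjusted p = 2.04e-06) in fl/fl mice and -3.60 (SE 0.52, adjusted p = 0.00306) in CKO mice. Gabre had -2.93 (SE 0.75, adjusted p = 0.000322) and -4.03 (SE 0.70, adjusted p = 0.00408), and Grm2 had -3.45 (SE 0.60, adjusted p = 9.37e-08) and -1.10 (SE 0.57, adjusted p = 0.108). The fits of the 2 genotypes had unequal error degrees of freedom, so a larger change relative to its SE can have a larger adjusted p. Adjusted p-values and counts called on this scale therefore cannot be compared between the genotypes. The subunits that did not pass on this scale ran in fl/fl mice from -1.16 for Grm8 (SE 0.59) to 1.33 for the low-count Grin3b (SE 0.82). In CKO mice they ran from -1.10 for Grm2 to 0.72 for Grin2c (SE 0.42). Some sat near 0 in both, for example Gabbr1 at 0.003 and -0.09, Grin1 at -0.11 and -0.16, and Gabra2 at 0.04 and -0.14. Values were positive for 15 genes in fl/fl mice and 21 in CKO mice, none of them past the threshold, among them all 4 AMPA genes but Gria1.

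**Figure D4:**
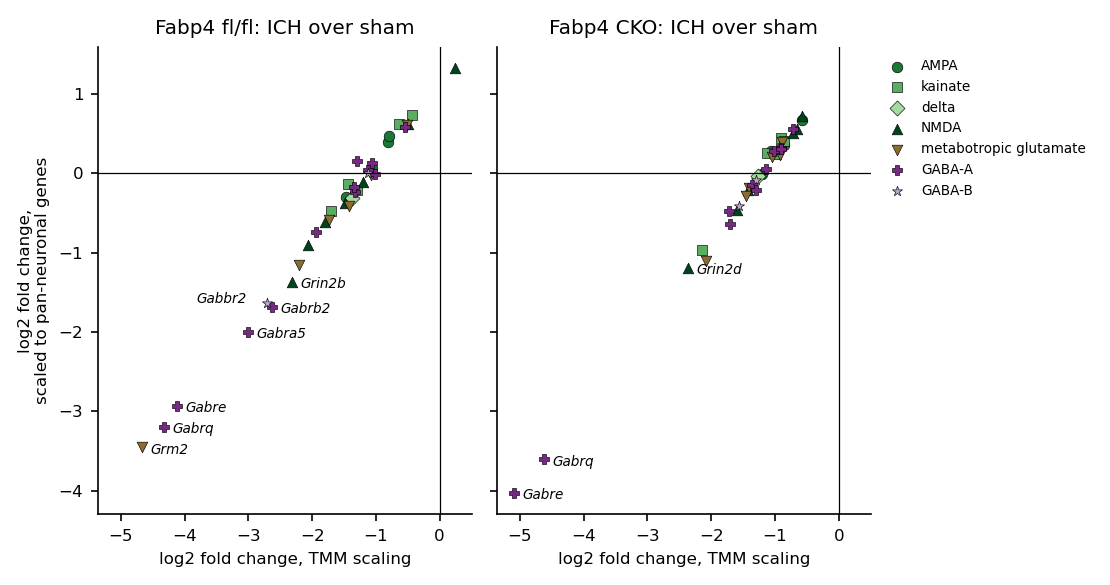
Log2 fold change of ICH over sham for 37 of the 42 receptor genes under TMM scaling (x axis) and scaled to 12 pan-neuronal genes (y axis), in fl/fl mice (left) and CKO mice (right), with symbols by receptor class. Named genes passed an adjusted p of 0.05 on the neuronal scale, 7 in fl/fl mice and 3 in CKO mice, all of them lower.

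The sum of the receptor genes per 100 CPM of pan-neuronal markers makes a like comparison within each library. It was 73.8, 69.2 and 96.2 in Sham-Fabp4 fl/fl mice, 82.4, 90.7 and 81.2 in Sham-Fabp4 CKO mice, 61.3, 62.3 and 77.4 in ICH-Fabp4 fl/fl mice and 70.7, 79.2 and 82.8 in ICH-Fabp4 CKO mice. The sham and ICH ranges overlapped in both genotypes.

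The effect of the knockout after ICH was addressed by comparing ICH-Fabp4 CKO with ICH-Fabp4 fl/fl mice, which are the same ICH libraries as in the comparisons with sham. A total of 39 receptor genes could be tested, Gabre, Gabrr2 and Grin3b having too few reads here. With edgeR 0 of the 39 passed, as for 0% of 14600 genes, and 0 had an unadjusted p under 0.05, against 5.82% of all genes lower and 6.36% higher at that level. DESeq2 called 0 of the 39, against 2.21% of all genes lower and 1.75% higher. The median log2 fold change was 0.21, against 0.062 over all genes, and 29 of the 39 values were positive. The largest was that of Grm2, at 1.57 (SE 0.92, adjusted p = 0.528), from 0.723, 0.605 and 1.701 CPM in ICH-Fabp4 fl/fl mice to 2.87, 5.87 and 0.388 CPM in ICH-Fabp4 CKO mice, where mouse 3 was the lowest of the 6.

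The errors left room for sizeable differences. For Gabbr2 an interval of ± 2 SE ran from -0.89 to 2.08 on the log2 scale, for Grin2b from -0.54 to 2.48, for Gabra5 from -0.87 to 2.63 and for Gabrq from -1.51 to 1.83. Of the receptor genes 0 had the 2 ICH groups apart in either direction, against 9.51% of all genes apart and lower and 10.3% apart and higher. Oligodendrocyte markers moved between these groups, all 7 lower in ICH-Fabp4 CKO mice at an unadjusted p under 0.05 and 0 after adjustment, with sums of between 7420 and 11800 CPM against between 19200 and 27400 CPM. The same held for all 7 endothelial markers, with sums of between 266 and 390 CPM against between 504 and 1050 CPM. No marker of either list was at 0. Of the cortical excitatory markers 5 of the 8 tested were higher in ICH-Fabp4 CKO mice at an unadjusted p under 0.05, with the sums given above and a median log2 fold change of 2.91, and so were 3 of 5 neutrophil markers, with sums of between 16.7 and 151 CPM against between 17.5 and 45.3 CPM. Of 7 microglia and 7 macrophage and monocyte markers 2 each were higher at that level, 3 of 6 oligodendrocyte precursor markers were lower, and 0 of any of these passed after adjustment. The part of all these lists in the receptor values was not tested.

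In sham mice 0 of the 42 genes passed in Sham-Fabp4 CKO against Sham-Fabp4 fl/fl with edgeR, where 0.111% of 14395 genes did, and DESeq2 called 0, against 0.966% of all genes lower and 0.0764% higher. At an unadjusted p under 0.05, 4 were lower and 0 were higher, against 6.07% and 4.15% of all genes. Among these were Grin2a with a log2 fold change of -0.57 (SE 0.18), Gabra4 with -0.37 (SE 0.13) and Gabra5 with -0.42 (SE 0.18), whose adjusted p-values lay between 0.47 and 0.484. Grin2a and Gabra4 had the 2 sham groups apart in the per-mouse values above, as did 8.07% of all genes in that direction, and 0 receptor genes had them apart in the other, against 6.79%. With Sham-Fabp4 fl/fl mice 1 and 2 left out, the values were -0.19 for Grin2a, -0.21 for Gabra4 and 0.005 for Gabra5. Without Sham-Fabp4 fl/fl mouse 3, by contrast, 6 genes were called lower and 12 higher, against 9.12% and 10.5% of all genes, so the calls of this comparison changed with that library.

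The interaction, which is the log2 fold change of ICH in CKO mice minus that in fl/fl mice, tested directly whether the ICH effect differed by genotype. With edgeR 0 of the 42 genes passed, where 0.0199% of 15089 genes did, and DESeq2 called 0, against 0.55% of all genes lower and 1.21% higher. At an unadjusted p under 0.05, 0 were lower and 1 was higher, against 4.37% and 5.57% of all genes. That gene was Grm2, with 2.55 (SE 1.08, adjusted p = 0.459). With a replicate block in the edgeR fit it stood at 2.09 (adjusted p = 0.673). Of 9 cortical excitatory neuron markers 7 were higher and 0 lower at an unadjusted p under 0.05, with a median of 2.75, and 0 passed after adjustment. The part of these transcripts in the Grm2 value was not tested.

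Balance within receptor types was read from log2 ratios of counts, tested by two-sided exact permutation, for which 3 mice against 3 cannot give a p below 0.1. Adjusted over the 16 ratio tests the smallest p was 0.16. The Grin2a to Grin2b ratio was -1.19, -1.35 and -2.38 in Sham-Fabp4 fl/fl mice and 0.13, -0.86 and -0.99 in ICH-Fabp4 fl/fl mice, a difference of 1.06 (exact p = 0.1). It was -2.24, -2.23 and -2.43 in Sham-Fabp4 CKO mice and -1.54, -1.54 and -1.46 in ICH-Fabp4 CKO mice, a difference of 0.79 (exact p = 0.1). The ICH values lay above the sham values in both genotypes, since Grin2b was reduced more than Grin2a.

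The Gabbr1 to Gabbr2 ratio went from 1.26, 1.25 and 2.44 to 3.77, 3.69 and 2.78 in fl/fl mice, a difference of 1.76 (exact p = 0.1). In CKO mice it went from 2.14, 2.48 and 2.06 to 2.54, 2.39 and 2.76, a difference of 0.34 (exact p = 0.2), with overlap. The Gria2 to Gria1 ratio changed by 0.42 in fl/fl mice (exact p = 0.2) and by 0.35 in CKO mice (exact p = 0.1), toward more Gria2 relative to Gria1 in both. Between the ICH groups, the Grin2a to Grin2b ratio differed by -0.94 (CKO minus fl/fl) and the Gabbr1 to Gabbr2 ratio by -0.85 (exact p = 0.1 for each), with no overlap. The Gria2 to Gria1 ratio was 0.24 higher in ICH-Fabp4 CKO mice (exact p = 0.1), also with no overlap, and 0.31 higher in Sham-Fabp4 CKO mice (exact p = 0.2). The first 2 of these ratios differed between the sham groups by -0.66 and 0.58 (exact p = 0.3 for each). For both, Sham-Fabp4 fl/fl mice 1 and 2, which had more cortical and thalamic transcripts, stood apart from mouse 3. Mouse 3, at -2.38 and 2.44, lay within the range of the Sham-Fabp4 CKO mice. The part of the cortical and thalamic transcripts in these ratios was not tested.

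The ratio of Slc12a5, the neuronal chloride exporter KCC2 on which inhibition by GABA-A receptors depends, to Slc12a2, the chloride importer NKCC1, was also followed. It was 1.68, 1.37 and 2.31 in Sham-Fabp4 fl/fl mice and -0.98, -0.77 and 1.01 in ICH-Fabp4 fl/fl mice, a difference of -2.04 (exact p = 0.1). It was 2.48, 2.75 and 2.51 in Sham-Fabp4 CKO mice and 0.23, 1.64 and -0.09 in ICH-Fabp4 CKO mice, a difference of -1.99 (exact p = 0.1). Within each genotype the ICH values lay below the sham values. Between the sham groups it was 0.79 higher in CKO mice (exact p = 0.1), with no overlap, and between the ICH groups the difference was 0.84 (exact p = 0.4), with overlap. Slc12a2 is transcribed by many cell types, and the part of the share of neuronal transcripts in this ratio was not tested.

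**Figure D5:**
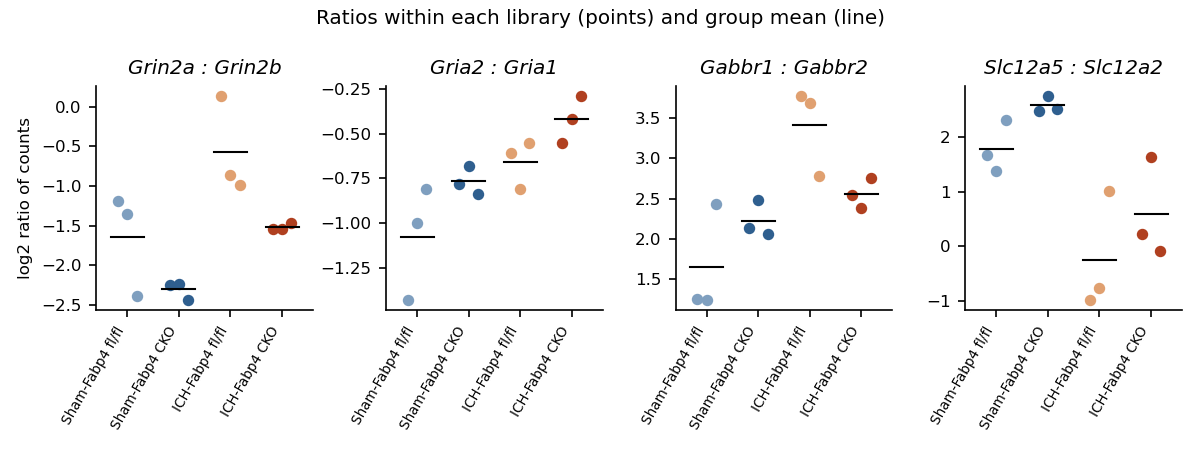
Log2 ratios of counts within each library for 4 gene pairs (panels), by group, with points for mice 1 to 3 from left and a line for the group mean. Within each genotype the Slc12a5 to Slc12a2 ratio is lower in all ICH mice than in all sham mice, and the Grin2a to Grin2b ratio is higher.

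Genes of the surrounding synaptic machinery moved in part with the receptors. Of 14 auxiliary subunits of AMPA and kainate receptors, 6 were lower in fl/fl mice and 7 in CKO mice, 0 being higher. Their medians were -0.74 and -1.13, and Shisa6, Cnih3 and Shisa9 had the largest falls in fl/fl mice, at -2.12, -1.99 and -1.36. Of 21 excitatory postsynaptic scaffold genes 10 were lower and 0 higher in fl/fl mice and 5 lower and 1 higher in CKO mice. Homer2, Shank1 and Shank2 fell in fl/fl mice, with -2.11, -2.01 and -1.78, and Homer3 rose by 1.88 in CKO mice.

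Of 13 inhibitory scaffold and GABA receptor partner genes 7 were lower and 3 higher in fl/fl mice and 3 lower and 2 higher in CKO mice. The 3 that rose in fl/fl mice were Gabarap, a receptor trafficking and autophagy gene, by 0.96, Trak2 by 0.68 and Kctd12, a GABA-B auxiliary subunit, by 0.63. Kctd16 and Kctd8, also GABA-B auxiliary subunits, fell in fl/fl mice, with -2.10 and -1.31. Of 17 genes for transmitter synthesis, vesicular loading and uptake 8 were lower in fl/fl mice and 5 in CKO mice, 0 being higher.

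The vesicular glutamate transporters Slc17a7 and Slc17a6 had the largest falls of that group in fl/fl mice, with log2 fold changes of -3.83 and -3.79. Slc17a7 had 272, 397 and 59.5 CPM in Sham-Fabp4 fl/fl mice, 8.21, 7.32 and 35.0 CPM in ICH-Fabp4 fl/fl mice and 68.7, 387 and 83.9 CPM in ICH-Fabp4 CKO mice. In Sham-Fabp4 CKO mice it had 83.6, 79.9 and 36.5 CPM, and its log2 fold change in CKO mice was 1.45 (adjusted p = 0.15). The high sham values were those of mice 1 and 2, as for the other cortical markers. Slc1a6, a glutamate transporter, fell by 2.16 in fl/fl mice and fell by 2.24 in CKO mice.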

How the data were processed

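RNA-seq was made from brain tissue of 12 mice, 3 in each of 4 groups taken from the labels, with each library from its own mouse. The authors deposited estimated counts per gene for all libraries in 1 table of 21956 genes. The submitters' processing notes list Bowtie2 2.2.8, HISAT2, StringTie 1.3.1 and DESeq2 without roles, and the genome build, the counting tool and strandedness are not given in the sources used here. Between 7.36% and 8.69% of a library's values were not whole numbers, so all were rounded. The 83 genes without a symbol were kept under their identifiers.

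Library totals ran from 15650822 to 22406226, and low-count values carry counting error of their own. Genes were kept by edgeR's filterByExpr (minimum count 10, minimum total 15) in each comparison. Pairs of groups were fitted with edgeR 4.0.16 (limma 3.58.1, R 4.3.3; TMM scaling, quasi-likelihood test, Benjamini-Hochberg adjustment over all genes tested, threshold 0.05), and the interaction over all 12 libraries. The SE of an edgeR log2 fold change is its absolute value divided by the square root of the test's F statistic. Intervals are 2 SE wide on either side and are approximate. Levels are TMM CPM over all 12 libraries, divided by the exon length of GENCODE vM21 where genes are compared. Ratios used counts plus 0.5 and two-sided exact permutation tests. The alternatives were DESeq2 1.42.0, other scalings and filters, a replicate block, 1 fit of all libraries, and libraries left out. The fits were tested on simulated data. Figures were drawn with matplotlib 3.10.9 in Python 3.11.15.

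The subunit genes, partner lists and cell type markers were chosen with earlier results of these data known. All subunits could be named. Per-library values were given for the largest and smallest change of each receptor class in fl/fl mice, for genes that rose, that had an unadjusted p under 0.05 between genotypes or in the interaction, or that were below the filter, and other genes shown in full were picked with their values in view. Results of 5 subunit genes are not reported here, although counts, medians and sums include them. From the other lists at most 3 genes per direction were named. In the annotation 14 of the subunit genes share exon sequence with a gene on the other strand, and 6 with a small RNA gene on the same strand. Among the 14 are Gabra4 with Gabrb1, and also Grm2, Gabra5, Grin1, Grin2b, Grin2d and Grin3b. Reads of such overlapping genes could not be told apart here.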

Additional observations from a re-analysis of the deposited data

How the results depend on the processing

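Scaling to pan-neuronal genes left 8 of the 32 receptor genes lower after ICH in fl/fl mice and 3 of the 15 in CKO mice. Of the genes called under TMM scaling it turned 7 positive in fl/fl mice (Gabbr1 0.003, Gabra2 0.038, Gabrb1 0.129, Gria2 0.065, Gria3 0.396, Gria4 0.475 and Grik2 0.628) and 4 in CKO mice (Gria4 0.281, Grik2 0.443 and Grik4 0.26 among them), since the setting sets neuronal genes near 0 by construction. In CKO mice DESeq2 called 34 genes lower, 1 fit of all 12 libraries called 24, and 26 were called with ICH-Fabp4 CKO mice 1 and 3 left out, where 1 ICH library is assumed to vary like the sham libraries; the cause was not tested. With Sham-Fabp4 fl/fl mice 1 and 2 left out, which leaves 1 sham library assumed to vary like the ICH libraries, 5 genes were called lower in fl/fl mice and Gabra5 stood at 0.005 between the sham groups. Both of these library choices were made after seeing the data. Leaving out 1 mouse at a time gave between 14 and 39 genes lower in fl/fl mice, where between 9.83% and 25.8% of all genes were lower. In CKO mice it gave between 2 and 40, where between 0.335% and 32.7% of all genes were lower. Between the sham groups it gave between 0 and 6 lower and between 0 and 12 higher, against at most 9.12% and 10.5% of all genes. In none of these single-mouse fits did a called gene change sign after ICH. The labels number the mice of each group and do not say whether same-numbered mice belong together. The deviations of same-numbered mice correlated at 0.205, 0.03 and 0.145 in fl/fl mice and at 0.005, -0.001 and -0.008 in CKO mice. Between the ICH groups they correlated at 0.362, -0.179 and -0.61, and between the sham groups at 0.074, -0.195 and -0.097. With 3 mice a group these values cannot decide whether mice were paired. With a replicate block all 32 genes kept the call in fl/fl mice and 12 of the 15 in CKO mice. Among the genes that passed in fl/fl mice with the block and not without it were Grm5, Gabrd, Gabrg3 and Grik5. Their adjusted p-values with the block were 0.0041, 0.0279, 0.0369 and 0.0458. In CKO mice Gabbr1, Gabra4, Gabrd, Grin1, Grm3 and Grm8 passed with the block and not without it (adjusted p between 0.0389 and 0.0471). The 3 mice a group and the low counts of Grin3b, Gabrr2 and Gabre limit what could be detected.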
